A study of Arabidopsis thaliana with 18 samples.

Results

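Seedlings that lack the blue light receptor cryptochrome 2 were set against wild type after both had received the same short exposure to blue light. The comparison used 6 of the 18 libraries of the study and covered every locus with a mean of at least 1 TPM (the share of a transcript in its library, corrected for transcript length) over those 6 libraries, which was 19516 of the 32833 loci in the tables. The group labelled cry2_blue (n = 3) was the mutant cry2-1, and the group labelled WT_blue (n = 3) was the accession Col-0. Both were Arabidopsis seedlings kept for 4 days on 1/2 MS medium in darkness and then exposed for 30 min to blue light (30 µmol per square metre and second). Dark-grown seedlings of the same age served for comparison, in the groups cry2_dark (n = 3), WT_dark 1-3 and WT_dark 4-6. Poly(A) RNA was sequenced from TRIzol extracts of whole seedlings, as far as the labels say, with a stranded Illumina kit. Nothing in the labels says that replicates came from separate cultures, so the p-values measure only the spread between these samples, which may be technical.

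Cryptochromes are flavoproteins that absorb blue light and then bind partner proteins. Active cryptochrome 2 pairs with transcription factors of the CIB family and holds back the COP1/SPA ubiquitin ligase, so that factors such as HY5 accumulate, and it promotes de-etiolation under weak blue light and photoperiodic flowering. A second cryptochrome, CRY1, acts in the same direction and is dominant in strong blue light. The mutant used here is a deletion allele, and its lesion is wider than CRY2.

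The 3 genes at the lesion had the largest differences, on the log2(TPM + 1) scale, of the loci with a limma adjusted p under 0.05. CRY2 had 0.03, 0.06 and 0.03 TPM in the cry2_blue libraries, against 89.6, 90.6 and 73.3 TPM in the WT_blue libraries. Its neighbour c-NAD-MDH1, a cytosolic NAD-dependent malate dehydrogenase, had 0.19, 0.22 and 0.20 TPM in cry2_blue, against 554, 551 and 679.6 in WT_blue. The next gene, AT1G04420, annotated as an NAD(P)-linked oxidoreductase, had 0.06, 0.03 and 0.08 TPM in cry2_blue, against 104, 102 and 59.4 in WT_blue. All 3 genes were therefore near 0 in every cry2_blue library, and all 3 were listed at exactly 0 in every cry2_dark library. On the log2(TPM + 1) scale on which all tests were run, CRY2 fell by 6.36 ± 0.13 (SE, limma adjusted p = 1.83e-06), c-NAD-MDH1 by 8.95 ± 0.12 (adjusted p = 1.44e-07) and AT1G04420 by 6.36 ± 0.22 (adjusted p = 6.18e-05). Differences between the 2 groups thus belong to a genotype that lacks a receptor and a malate dehydrogenase together, and the contributions of the 3 missing genes cannot be told apart.

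The genes on either side of the lesion were transcribed in both genotypes. AT1G04390, a BTB/POZ domain gene, had 3.78, 4.53 and 3.67 TPM in cry2_blue, against 3.09, 2.79 and 2.80 in WT_blue. AT1G04380, which codes for an oxygenase of the 2-oxoglutarate class, varied between libraries of 1 group, with 7.5, 5.14 and 0.08 TPM in cry2_blue, against 0, 4.49 and 5.47 in WT_blue. On the other side the non-coding gene AT1G04425, the methyltransferase gene AT1G04430 and the casein kinase gene CKL13 overlapped between the groups. None of these neighbours passed the test (adjusted p from 0.306 to 0.925). Leaving out the 3 missing genes, the 198 tested loci nearest to CRY2 on both sides held 0 calls, and 25.8% separated the groups, against 24.4% of all loci tested.

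Other malate dehydrogenases did not pass the test. The second cytosolic gene, c-NAD-MDH2, had 67.2, 71.9 and 64.3 TPM in cry2_blue, against 53.7, 62.5 and 56.7 in WT_blue (log2 difference 0.23 ± 0.11, limma adjusted p = 0.346). The mitochondrial gene mMDH1 and the peroxisomal gene PMDH1 differed by 0.21 each, with adjusted p of 0.394 and 0.373. All 3 had every cry2_blue library above every WT_blue library. Of the 22 tested members of the list on malate and NAD metabolism, c-NAD-MDH1 alone was called and 7 (31.8%) lay higher in all cry2_blue libraries, against 19.0% of all loci. After median-of-ratios scaling 1 did, against 10.6%.

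The whole comparison gave few calls. At an adjusted p under 0.05 (limma, Benjamini-Hochberg over all 19516 loci), 14 loci were called, or 0.0717% of those tested, 8 higher and 6 lower in cry2_blue, and each of the 14 differed by at least 2-fold on the log2(TPM + 1) scale. At an unadjusted p under 0.05 there were 2304 loci higher in cry2_blue (11.8%) and 705 lower (3.61%). A library-by-library count gives the same lean. In 3701 loci (19.0%) all 3 cry2_blue libraries lay above all 3 WT_blue libraries, and in 1064 loci (5.45%) they lay below. Loci of either kind are said here to separate the groups. The median locus was 0.11 higher in cry2_blue on the log2 scale. When the libraries were rescaled by median-of-ratios factors this median became 0.001, and 2065 loci (10.6%) separated upwards and 2208 (11.3%) downwards. The upward lean of the whole comparison depended on the scaling.

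Library WT_blue 3 stood apart. Its correlation with its own group over all tested loci was 0.953, whereas the highest within-group value of the other 5 libraries was between 0.969 and 0.979. It lay at -60 on the first principal component, and WT_blue 1 and 2 both lay at -8. The 4 rRNA loci followed summed to 13617 TPM in WT_blue 3 and to between 7347 and 9968 TPM in the other 5 libraries, and organelle transcripts to 5009 TPM against 2111 to 3629 TPM. Its median-of-ratios factor was 0.908, against 0.991 to 1.07 elsewhere. Without WT_blue 3 there were 41 calls among 19546 loci, 4887 loci (25.0%) lay higher in all 3 cry2_blue libraries than in WT_blue 1 and 2, and 2095 (10.7%) lay lower. Exact zeros also need care in these tables. The abundant light-harvesting gene LHB1B2 was listed at 1325, 0 and 1421 TPM in cry2_blue, against 1514, 1199 and 3061 in WT_blue, and at 0 in all of WT_dark 4-6.

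Beyond the lesion, 3 genes were called lower. LTP3, a secreted lipid transfer protein whose gene responds to abscisic acid, had 25.6, 29.2 and 19.9 TPM in cry2_blue, against 112.6, 104 and 90.9 in WT_blue. The groups lay far apart, and LTP3 fell by 2.01 ± 0.16 (log2, limma adjusted p = 0.0118). It was also lower in cry2_dark than in WT_dark 1-3 by 1.53 (adjusted p = 0.0318), and the difference from WT_dark 4-6, which uses the same cry2_dark libraries, was -1.23 (adjusted p = 0.0669). The call was lost without cry2_blue 1 or without WT_blue 2.

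AT3G52870, annotated as a protein with IQ calmodulin-binding motifs, had 23.1, 19.5 and 24.5 TPM in cry2_blue, against 54.1, 49.2 and 46.8 in WT_blue. It fell by 1.13 ± 0.12 (log2, limma adjusted p = 0.0396). In darkness the mutant level was lower still, at 9.01, 9.07 and 9 TPM in cry2_dark, against 50.8, 58.2 and 56.8 TPM in WT_dark 1-3 and 60.7, 56.1 and 50.4 TPM in WT_dark 4-6. Wild type thus stayed between 46.8 and 60.7 TPM in all 3 groups, while the 2 mutant groups differed from each other. The difference between the genotypes was 1.36 smaller after blue light than in darkness (interaction, adjusted p = 0.00101). The call in blue light was lost in 5 of the fits that left out a library, those without cry2_blue 1, 2 or 3 or WT_blue 1 or 2. The small nucleolar RNA gene SNOR111 was listed at 0 in all cry2_blue libraries, against 28.2, 22.1 and 40.9 in WT_blue (adjusted p = 0.000295). It is 130 bases long and was listed at 0 in all 9 dark libraries as well.

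Among the genes called higher, PAL2 belongs to a well-described metabolic pathway. It codes for phenylalanine ammonia-lyase, which takes phenylalanine into the phenylpropanoid pathway. PAL2 had 96.5, 86.2 and 65.8 TPM in cry2_blue, against 27.5, 24.0 and 21.4 in WT_blue. Every mutant library was above every wild-type library, and PAL2 rose by 1.72 ± 0.17 (log2, limma adjusted p = 0.0266). In darkness the order was the opposite, with 14.3, 16.7 and 14.3 TPM in cry2_dark, against 45.1, 41.1 and 47.4 TPM in WT_dark 1-3 (-1.50, adjusted p = 1.02e-06). Against WT_dark 4-6, which had 21.3, 13.7 and 19.2 TPM, the difference was -0.23 (adjusted p = 0.295). The difference between blue light and darkness was 3.22 ± 0.20 with WT_dark 1-3 (adjusted p = 3.41e-06). The call of PAL2 in blue light was lost without cry2_blue 1 or 2 and without WT_blue 1 or 2.

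AIR1, a hybrid proline-rich protein gene first isolated from auxin-treated root cultures, had 106, 78.8 and 140.0 TPM in cry2_blue, against 18.8, 9.40 and 17.1 in WT_blue. It rose by 2.78 ± 0.29 (log2, limma adjusted p = 0.0374), and the groups did not overlap. The mutant was also higher in darkness, with 137 to 149.6 TPM in cry2_dark, against 26.2 to 41.7 in WT_dark 1-3 and between 20.4 and 53.1 in WT_dark 4-6 (2.07, adjusted p = 7.05e-05, and 2.09, adjusted p = 0.00466). The neighbouring gene AT4G12545, of the same protein family, had 19.3, 13.03 and 22.4 TPM in cry2_blue, against 2.34, 1.26 and 3.65 in WT_blue, and just missed the threshold (2.52 ± 0.30, adjusted p = 0.0518). Leaving out any 1 of the 6 libraries ended the call of AIR1, although its difference stayed between 2.50 and 2.99 in all 16 alternatives.

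The other 6 called loci that were higher were uncharacterized or non-coding. AT5G62210, annotated as an embryo-specific protein (ATS3), had 6.02, 6.69 and 6.14 TPM in cry2_blue, against 0.78, 1.14 and 0.71 in WT_blue (1.96 ± 0.16, limma adjusted p = 0.0118). AT5G20790, an uncharacterized protein gene, had 15.4, 24.5 and 26.4 TPM in cry2_blue, against 2.84, 2.26 and 1.12 in WT_blue (2.92 ± 0.28, adjusted p = 0.0266). The long non-coding RNA AT5G53048 had 34.6, 26.2 and 21.6 TPM in cry2_blue, against 4.16, 4.59 and 2.80 in WT_blue (2.55 ± 0.21, adjusted p = 0.0143). In all 3 the lowest cry2_blue library was several times the highest WT_blue library.

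A second long non-coding RNA, AT2G08825, had 25.0, 21.8 and 17.5 TPM in cry2_blue, against 0.57, 2.66 and 1.95 in WT_blue (3.11 ± 0.31, limma adjusted p = 0.0306). The short antisense RNA AT3G02475, which spans 137 bases, had 14.1, 19.2 and 57.4 TPM in cry2_blue and was listed at 0 in WT_blue (adjusted p = 0.0266). In darkness it was listed at 49.98 TPM in 1 library of cry2_dark and 50.3 TPM in 1 library of WT_dark 1-3, and at 0 in the others of these groups. Wild type expressed it in WT_dark 4-6, at 23.07, 23.15 and 83.09 TPM. AT3G09055, an uncharacterized protein gene, had 4.48, 2.46 and 5.13 TPM in cry2_blue and was listed at 0 in WT_blue (adjusted p = 0.043). In cry2_dark it had 0.65, 0.98 and 1.03 TPM, against 0 in WT_dark 1-3. Against WT_dark 4-6, with 7.47, 3.66 and 4.48 TPM, it was called lower in cry2_dark (-1.68, limma adjusted p = 0.000565). AT5G53048, AT2G08825, AT3G02475, AT3G09055 and AIR1 each overlap another gene on the opposite strand, and since the strand setting of the counting is not known, reads of the 2 genes of such a pair may have been mixed.

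**Figure D1:**
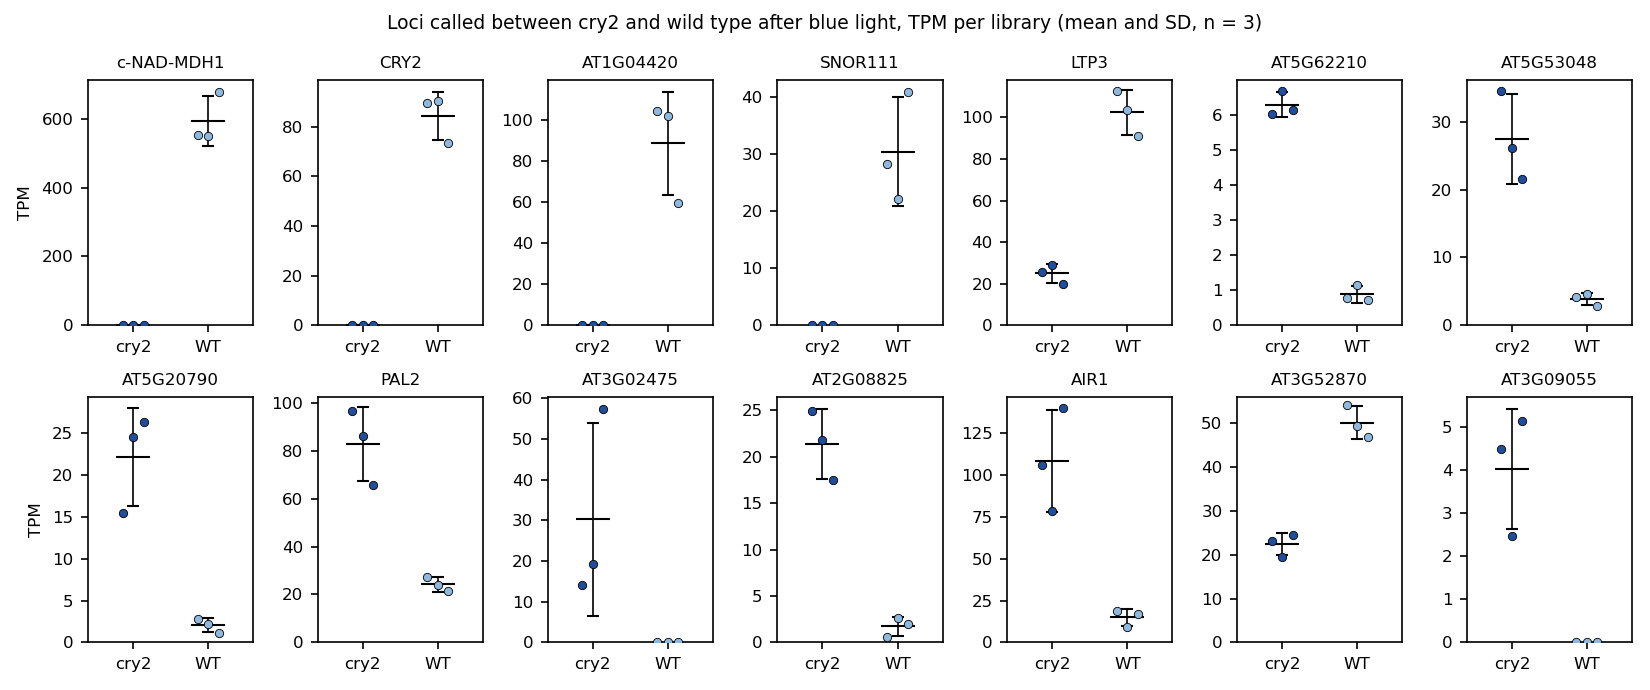
TPM of the 14 called loci in each cry2_blue library (left in each panel) and each WT_blue library (right), with points for libraries and the mean ± SD for groups not listed at 0 throughout. The groups do not overlap at any of the 14 loci, and the 3 genes of the lesion stay at or under 0.22 TPM in cry2_blue.

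A broad group among the loci that were higher but not called was the response to phosphate shortage. When phosphate is scarce, the transcription factor PHR1 binds a short palindrome, the P1BS element, and turns on phosphate transporters, phosphatases and enzymes that replace phospholipids by galactolipids and sulfolipids, while SPX proteins hold PHR1 back when phosphate is plentiful. Of 29 genes listed, 21 reached a mean of 1 TPM. None was called by limma, 15 had an unadjusted p under 0.05, all of them higher, and 14 (66.7%) lay higher in all 3 cry2_blue libraries than in any WT_blue library, against 19.0% of all loci. None separated downwards. Their median difference was 0.70 (log2), against 0.11 over all loci. After median-of-ratios scaling the median was 0.59, and 11 members separated upwards and 1 downwards, against 10.6% and 11.3% of all loci. Without WT_blue 3, 3 of 22 members were called and 16 separated upwards. Over all 19546 loci tested in that setting, 41 were called and 25.0% separated upwards.

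The promoters of the members that hold the P1BS letters GNATATNC within 250 bases upstream of the annotated start are shown because this is the element through which the pathway is known to act. The element was searched on both strands, and capitals mark each match. The sequences are from RefSeq, assembly TAIR10.1, and loci were matched by identifier.
PS2 (chr1:27466349-27466598, minus strand): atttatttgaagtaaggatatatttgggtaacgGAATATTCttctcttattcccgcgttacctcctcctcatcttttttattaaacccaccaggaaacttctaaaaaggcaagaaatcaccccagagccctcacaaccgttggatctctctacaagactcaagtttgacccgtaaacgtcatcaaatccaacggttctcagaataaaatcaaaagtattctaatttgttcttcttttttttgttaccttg
SRG3 (chr3:350011-350260, minus strand): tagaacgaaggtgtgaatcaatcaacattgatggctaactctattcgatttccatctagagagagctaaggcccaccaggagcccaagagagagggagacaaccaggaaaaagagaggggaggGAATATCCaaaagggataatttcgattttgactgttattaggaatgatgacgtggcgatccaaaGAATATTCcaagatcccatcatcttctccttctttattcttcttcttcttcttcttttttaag
AT5G03545 (chr5:894332-894581, plus strand): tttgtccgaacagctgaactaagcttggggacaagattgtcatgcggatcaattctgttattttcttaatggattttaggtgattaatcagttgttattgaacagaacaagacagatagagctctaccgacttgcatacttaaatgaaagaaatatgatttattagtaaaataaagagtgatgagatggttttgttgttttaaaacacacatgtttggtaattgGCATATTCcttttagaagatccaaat
AT5G53048 (chr5:21509611-21509860, plus strand): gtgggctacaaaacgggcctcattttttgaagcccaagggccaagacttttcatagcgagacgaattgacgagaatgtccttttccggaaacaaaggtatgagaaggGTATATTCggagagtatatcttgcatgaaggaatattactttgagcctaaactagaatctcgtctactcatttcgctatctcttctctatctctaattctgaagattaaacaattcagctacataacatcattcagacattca
PS2, SRG3 and AT5G03545 are on the phosphate list, and AT5G53048 is the called long non-coding RNA described above. MGD2, also on the list, holds the match GAATATTC 14 bases before its start, in a window that overlaps the gene AT5G20400. In all, 4 of the 21 tested list members (19.0%) held a match, against 1055 of 19392 promoters of tested loci (5.44%), 1 of the 8 loci called higher (12.5%) and 1 of the 6 called lower (16.7%). The match GAATATTC also satisfies the heat shock core GAANNTTC, which 9.27% of promoters of tested loci held. A match of letters is a description of the sequence, not evidence of binding.

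SPX1, the phosphate-dependent inhibitor of PHR1 and itself a PHR1 target, had 39.8, 51.0 and 43.6 TPM in cry2_blue, against 13.9, 15.1 and 8.25 in WT_blue (1.80 ± 0.22, limma adjusted p = 0.0539). IPS1, a non-coding RNA that binds and blocks the microRNA miR399, had 7.15, 4.77 and 5.11 TPM in cry2_blue, against 0.54, 1.04 and 1.37 in WT_blue (1.76 ± 0.22, adjusted p = 0.0592). AT5G03545, annotated only as expressed in response to phosphate starvation, had 192, 194 and 162 TPM in cry2_blue, against 75.5, 37.4 and 35.3 in WT_blue (1.95 ± 0.28, adjusted p = 0.0821). The mutant was above wild type in every library for all 3, and the adjusted p, from 0.0539 to 0.0821, lay above the threshold. PHR1 itself was level, with a difference of 0.003 (adjusted p = 0.991).

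Most of the enzymes and transporters described next had the same order of libraries. PS2, a phosphatase listed as inorganic pyrophosphatase 1, had 5.22, 7.36 and 12.5 TPM in cry2_blue, against 0.21, 0.80 and 0.41 in WT_blue, the largest difference on the list (2.61 ± 0.30, limma adjusted p = 0.0518). MGD2, which makes the galactolipid monogalactosyldiacylglycerol, had 4.53, 6.47 and 4.64 TPM in cry2_blue, against 1.52, 1.36 and 1.32 in WT_blue (adjusted p = 0.0578). SQD1, an enzyme of sulfolipid synthesis, had 85.8, 121 and 89.9 TPM in cry2_blue, against 44.0, 43.7 and 29.0 in WT_blue (adjusted p = 0.0907). Neither lipid-remodelling gene overlapped between the groups. The uptake transporters PHT1;1 and PHT1;4 had means of 35.5 ± 5.53 and 12.6 ± 3.00 TPM (SD, n = 3) in cry2_blue, against 22.8 ± 0.64 and 5.23 ± 0.76 in WT_blue. PHO1, which exports phosphate into the xylem, had 42.5, 39.2 and 41.6 TPM in cry2_blue, against 22.5, 20.18 and 33.6 in WT_blue (adjusted p = 0.2). SRG3, a glycerophosphodiester phosphodiesterase, had 35.7, 48.6 and 74.5 TPM in cry2_blue, against 23.7, 25.9 and 30.8 in WT_blue (adjusted p = 0.219). The acid phosphatase gene PAP17 overlapped, with 77.6, 86.6 and 78.9 TPM in cry2_blue, against 50.6, 56.3 and 90.8 in WT_blue.

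**Figure D2:**
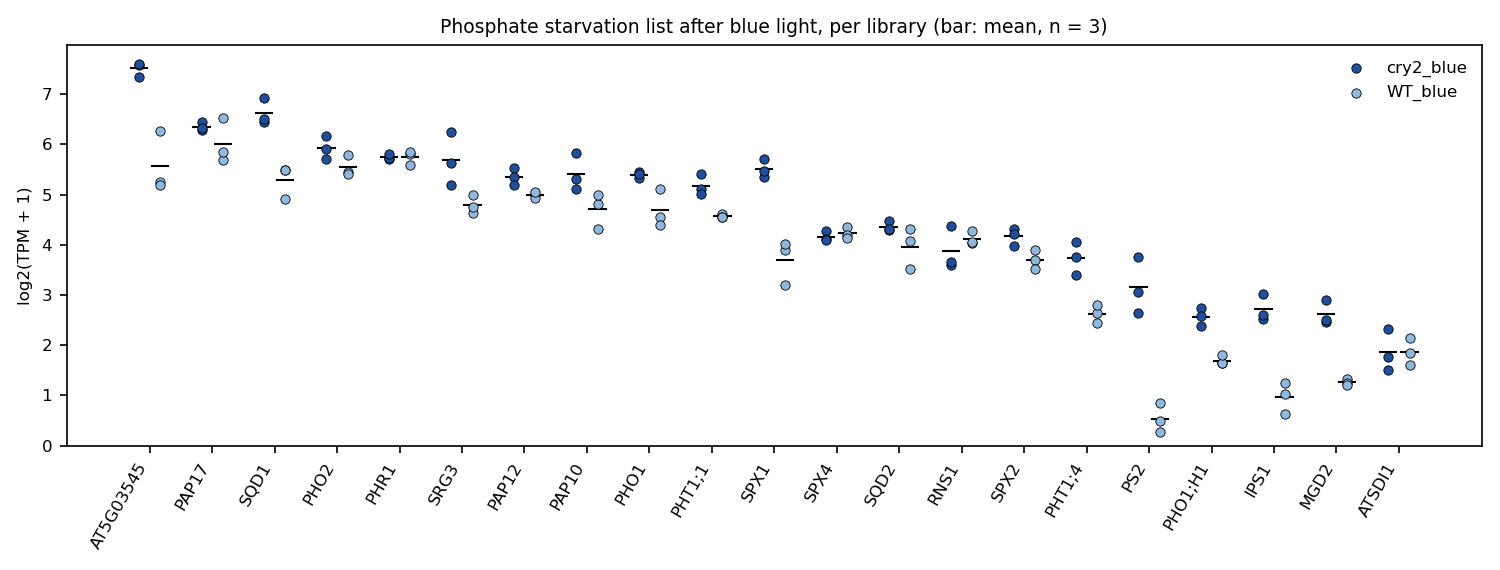
Level on the log2(TPM + 1) scale of the 21 tested phosphate starvation genes in each cry2_blue and WT_blue library. In 14 of the 21 genes all cry2_blue points lie above all WT_blue points, and in 7 they overlap.

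The same genes can be read in darkness from libraries that the blue comparison does not use. Against WT_dark 1-3, 13 of the 25 list members tested there were called higher in cry2_dark and 2 lower, where 17.37% of all loci tested were called higher and 5.865% lower. Against WT_dark 4-6, 7 of 23 were called higher and 1 lower, where 21.33% of all loci were called higher and 20.18% lower. SPX1 had 31.7, 42.2 and 41.6 TPM in cry2_dark, against 10.3, 13.8 and 18.3 TPM in WT_dark 1-3 (1.41, limma adjusted p = 0.00337) and 13.4, 39.2 and 29.6 TPM in WT_dark 4-6 (0.59, adjusted p = 0.3). AT5G03545 was called against both sets (1.86, adjusted p = 0.0198, and 1.33, adjusted p = 0.00797), and SQD1 against WT_dark 1-3 (0.98, adjusted p = 2.25e-05) and not against WT_dark 4-6 (0.23, adjusted p = 0.407). MGD2 and PHT1;1 differed between light conditions, being higher in the mutant by 1.08 and 0.78 more after blue light than in darkness (interaction with WT_dark 1-3, adjusted p = 0.0383 and 0.038). For PHT1;1 this turned with the wild-type set, since its dark difference was -0.17 against WT_dark 1-3 (adjusted p = 0.231) and 1.51 against WT_dark 4-6 (adjusted p = 4.36e-05), the second larger than the 0.60 after blue light. MGD2 differed by 0.16 from WT_dark 4-6 (adjusted p = 0.507).

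Phenylpropanoid genes downstream of and beside PAL2 lay higher in the mutant as well. This pathway supplies monolignols, sinapate esters and flavonoids. Of 14 listed genes, all tested, PAL2 was called, 7 had an unadjusted p under 0.05 and were higher, and 8 (57.1%) separated upwards, against 19.0% of all loci. The median difference was 0.48 (log2). After median-of-ratios scaling it was 0.37, and 8 separated upwards, against 10.6% of all loci. PAL1 had 68.3, 81.1 and 73.5 TPM in cry2_blue, against 40.5, 35.5 and 39.6 in WT_blue (0.93 ± 0.11, limma adjusted p = 0.0518). C4H, the cinnamate hydroxylase of the next step, had 166, 194 and 192 TPM in cry2_blue, against 119, 117 and 109 in WT_blue (0.67 ± 0.11, adjusted p = 0.103). CCoAOMT1, a methyltransferase of lignin synthesis, had 346, 353 and 351 TPM in cry2_blue, against 216, 217 and 288 in WT_blue (0.55 ± 0.14, adjusted p = 0.184). The last steps towards lignin alcohols did not share this, since CCR1 and CAD5 overlapped between the groups with differences of 0.02 and -0.13. PAL1 and PAL2 are close paralogs, and how reads common to both were assigned is not stated.

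The promoter of PAL2 is shown as that of the called gene of the pathway, with the ACGT core recognised by bZIP factors such as HY5 in capitals.
PAL2 (chr3:19747115-19747364, minus strand): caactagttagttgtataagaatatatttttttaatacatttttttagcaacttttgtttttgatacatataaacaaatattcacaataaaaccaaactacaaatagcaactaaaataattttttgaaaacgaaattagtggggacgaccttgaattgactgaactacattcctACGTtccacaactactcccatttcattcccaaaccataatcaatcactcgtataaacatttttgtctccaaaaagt
The core occurred in 9 of the 14 promoters of the list (64.3%), in 4 of the 8 loci called higher, in 2 of the 6 called lower and in 43.7% of promoters of tested loci. The full G-box CACGTG occurred in none of the 14 called promoters and in 7.16% of all.

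In darkness PAL2 stood against the other called members of the list. Against WT_dark 1-3, 5 of 14 members were called higher in cry2_dark and 1 (PAL2) lower, where 17.37% of all loci were called higher and 5.865% lower. Against WT_dark 4-6, 10 were called higher and 0 lower, where 21.33% and 20.18% of all loci were. PAL1 had 115, 147 and 140 TPM in cry2_dark, against 97.6, 94.3 and 97.2 TPM in WT_dark 1-3 (0.46, limma adjusted p = 0.0026) and 43.6, 22.2 and 38.2 TPM in WT_dark 4-6 (1.97, adjusted p = 0.000908).

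Enzymes of flavonoid and anthocyanin synthesis lay higher in all cry2_blue libraries in 9 of the 10 tested genes (90%), against 19.0% of all loci, and 6 of the 10 had an unadjusted p under 0.05. None was called. The median difference was 0.89 (log2), but WT_blue 3 carried part of it. TT4, the chalcone synthase that opens the branch, had 179, 250.1 and 164 TPM in cry2_blue, against 172, 155 and 27.2 in WT_blue. FLS1, the flavonol synthase, had 44.1, 68.1 and 44.1 TPM in cry2_blue, against 34.9, 29.0 and 5.90 in WT_blue. Both genes were lowest in WT_blue 3, and without that library the median of the list was 0.55, with 10 of 11 genes separating upwards, against 25.0% of all loci, and 0 called.

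Of the 15 listed enzymes, 5 did not reach the mean of 1 TPM and were not tested. GSTF12, the glutathione transferase needed to bring anthocyanins to the vacuole, had 11.6, 6.51 and 8.39 TPM in cry2_blue, against 2.30, 1.81 and 0.93 in WT_blue (1.88 ± 0.27, limma adjusted p = 0.0767). PAP1, the MYB factor that turns on anthocyanin genes, had 14.2, 13.9 and 9.95 TPM in cry2_blue, against 2.54, 4.57 and 2.40 in WT_blue (1.74 ± 0.23, adjusted p = 0.0657). F3H, the flavanone hydroxylase upstream, had 132, 141 and 131 TPM in cry2_blue, against 94.97, 102 and 70.7 in WT_blue (0.61 ± 0.15, adjusted p = 0.184). The flavonol regulators MYB11 and MYB12 had means of 6.77 ± 2.40 and 3.82 ± 0.74 TPM (SD, n = 3) in cry2_blue, against 2.03 ± 0.51 and 1.63 ± 0.26 in WT_blue (adjusted p = 0.139 each). Of 8 regulators tested, 3 (37.5%) separated upwards and 0 downwards, against 19.0% and 5.45% of all loci.

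In darkness the flavonoid lists depended on the wild-type set. Against WT_dark 1-3, 6 of 8 tested enzymes were called higher in cry2_dark and 0 lower, and against WT_dark 4-6, 0 of 9 were called higher and 3 lower. For the regulators these counts were 2 higher and 2 lower of 6, and 0 higher and 3 lower of 6. Over all loci 17.37% were called higher and 5.865% lower against WT_dark 1-3, and 21.33% and 20.18% against WT_dark 4-6. No enzyme and 1 regulator, PAP1, passed the test of the difference between light conditions. PAP1 had 1.35, 1.07 and 0.82 TPM in cry2_dark, against 1.49, 0.72 and 1.21 TPM in WT_dark 1-3, and its mutant effect was 1.77 larger after blue light (interaction, limma adjusted p = 0.0184). Against WT_dark 4-6 (3.27, 3.18 and 5.31 TPM) it was called lower in cry2_dark, by 1.22 (adjusted p = 0.00177).

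Cell division genes formed the third group that leaned upwards. Seedlings that leave darkness restart division at the shoot apex, and mitotic and replication genes are expressed mainly in dividing cells. Of 33 genes of mitosis and cytokinesis, 20 (60.6%) lay higher in all cry2_blue libraries and 14 had an unadjusted p under 0.05, and of 32 tested genes of DNA replication these counts were 18 (56.2%) and 16, against 19.0% and 11.8% of all loci. No member of either list separated downwards and none was called. Medians were 0.33 and 0.40 (log2), and 0.26 and 0.29 after median-of-ratios scaling, where 14 and 16 members separated upwards, against 10.6% of all loci. In bulk RNA, more dividing cells and more RNA of these genes per cell cannot be told apart, and the same holds for every group below.

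The members described next differed by less than 2-fold on the log2(TPM + 1) scale, and none passed the test. SYP111, the syntaxin that fuses vesicles at the cell plate, had 20.13, 20.8 and 21.7 TPM in cry2_blue, against 9.55, 11.6 and 16.3 in WT_blue (0.73 ± 0.18, limma adjusted p = 0.186). CYCB2;3, a mitotic cyclin, had 5.49, 5.77 and 4.75 TPM in cry2_blue, against 2.87, 2.93 and 2.85 in WT_blue (0.70 ± 0.14, adjusted p = 0.134). CDC20.1, an activator of the anaphase-promoting complex, had 28.3, 26.1 and 21.1 TPM in cry2_blue, against 15.1, 17.3 and 15.4 in WT_blue (0.62 ± 0.14, adjusted p = 0.152). On the replication side the helicase subunit MCM2 had 5.44, 6.39 and 4.79 TPM in cry2_blue, against 2.88, 2.94 and 2.01 in WT_blue (0.86 ± 0.17, adjusted p = 0.139). MET1, the maintenance DNA methyltransferase, had 23.9, 23.8 and 23.2 TPM in cry2_blue, against 14.4, 16.4 and 12.8 in WT_blue (0.67 ± 0.12, adjusted p = 0.117). PCNA2, the sliding clamp, and TSO2, a subunit of ribonucleotide reductase, differed by 0.46 ± 0.10 and 0.45 ± 0.12. SIM, an inhibitor of cyclin-dependent kinases that drives endoreduplication, had the opposite order, with 144, 122 and 130.5 TPM in cry2_blue, against 177, 183 and 243 in WT_blue (-0.59 ± 0.15, adjusted p = 0.191). SIM is on the list of kinase inhibitors and D cyclins, of whose 23 members 6, all D cyclins, separated upwards and SIM alone downwards. These shares, 26.1% and 4.35%, stand against 19.0% and 5.45% of all loci. After median-of-ratios scaling the counts were 4 and 4, against 10.6% and 11.3% of all loci.

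Whether cell cycle genes leaned the same way in darkness depended on the wild-type set. Against WT_dark 1-3, 8 of 33 mitosis genes and 20 of 33 replication genes were called higher in cry2_dark and 0 lower, where 17.37% of all loci were called higher. Against WT_dark 4-6, 15 mitosis genes were called higher and 5 lower, and 5 replication genes higher and 5 lower, where 21.33% of all loci were called higher and 20.18% lower. The 8 mitosis genes and the 5 replication genes called higher are near the shares over all loci. MCM5 had 9.93, 10.5 and 11.8 TPM in cry2_dark, against 5.54, 5.44 and 5.10 TPM in WT_dark 1-3 and 9.45, 14.03 and 11.3 TPM in WT_dark 4-6.

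Marker genes of organs and tissues were followed beside these groups. Root markers (15 of 23 tested) summed to 4183 to 5196 TPM in cry2_blue, against 4680 to 7450 in WT_blue, mostly the endoplasmic reticulum body glucosidase PYK10. Shoot apex and stomatal markers (13 of 19) summed to 281 to 347 TPM in cry2_blue, against 214 to 276 in WT_blue. Of these 13, 2 (15.4%) separated upwards and 1 (7.69%) downwards, near the 19.0% and 5.45% of all loci. Vascular markers (20 of 21) summed to 280 to 370 TPM in cry2_blue, against 225 to 259 in WT_blue. No marker of the 3 lists was at 0 in all 6 libraries. The part of tissue proportions in the results above was not tested.

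Among root markers 4 genes of suberin stood higher and most others overlapped. Suberin is the waxy polymer laid down in endodermal walls. ABCG6, which exports suberin monomers, had 10.8, 13.2 and 19.8 TPM in cry2_blue, against 4.69, 2.63 and 4.76 in WT_blue (1.62 ± 0.27, limma adjusted p = 0.105). CYP86B1 and CYP86A1, the fatty acid hydroxylases of the pathway, had means of 6.28 ± 1.75 and 20.3 ± 8.76 TPM (SD, n = 3) in cry2_blue, against 2.06 ± 0.36 and 7.60 ± 2.45 in WT_blue (adjusted p = 0.105 and 0.203). GPAT5, an acyltransferase, had 4.63, 5.61 and 8.94 TPM in cry2_blue, against 2.54, 1.97 and 3.08 in WT_blue (adjusted p = 0.169). These 4 and SHR were the 5 of 15 root markers (33.3%) that separated upwards, against 19.0% of all loci. The Casparian strip genes CASP1 and CASP2 overlapped, with differences of -0.02 and 0.04. In darkness CYP86B1, GPAT5 and ABCG6 were called higher in cry2_dark against both wild-type sets, for CYP86B1 by 1.60 and 1.21 (adjusted p = 8.64e-05 and 0.000619). CYP86A1 was called against WT_dark 1-3 (1.76, adjusted p = 1.01e-05) and narrowly missed against WT_dark 4-6 (0.97, adjusted p = 0.0532).

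Of 20 vascular genes 8 (40%) separated upwards, against 19.0% of all loci, and 4 after median-of-ratios scaling, against 10.6%. BHLH32, a basic helix-loop-helix factor of early vascular cells, had 11.8, 12.7 and 13.5 TPM in cry2_blue, against 6.99, 6.88 and 8.34 in WT_blue (0.70 ± 0.12, limma adjusted p = 0.119). ACL5, a thermospermine synthase that limits xylem maturation, had 45.5, 36.4 and 37.1 TPM in cry2_blue, against 22.5, 22.02 and 32.04 in WT_blue (0.63 ± 0.17, adjusted p = 0.207). CESA4, a cellulose synthase of secondary walls, and SUC2, the phloem sucrose loader, had means of 6.48 ± 1.25 and 37.9 ± 9.77 TPM (SD, n = 3) in cry2_blue, against 3.18 ± 0.93 and 23.7 ± 5.40 in WT_blue. Without WT_blue 3, 15 of 20 vascular members separated upwards, against 25.0% of all loci.

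**Figure D3:**
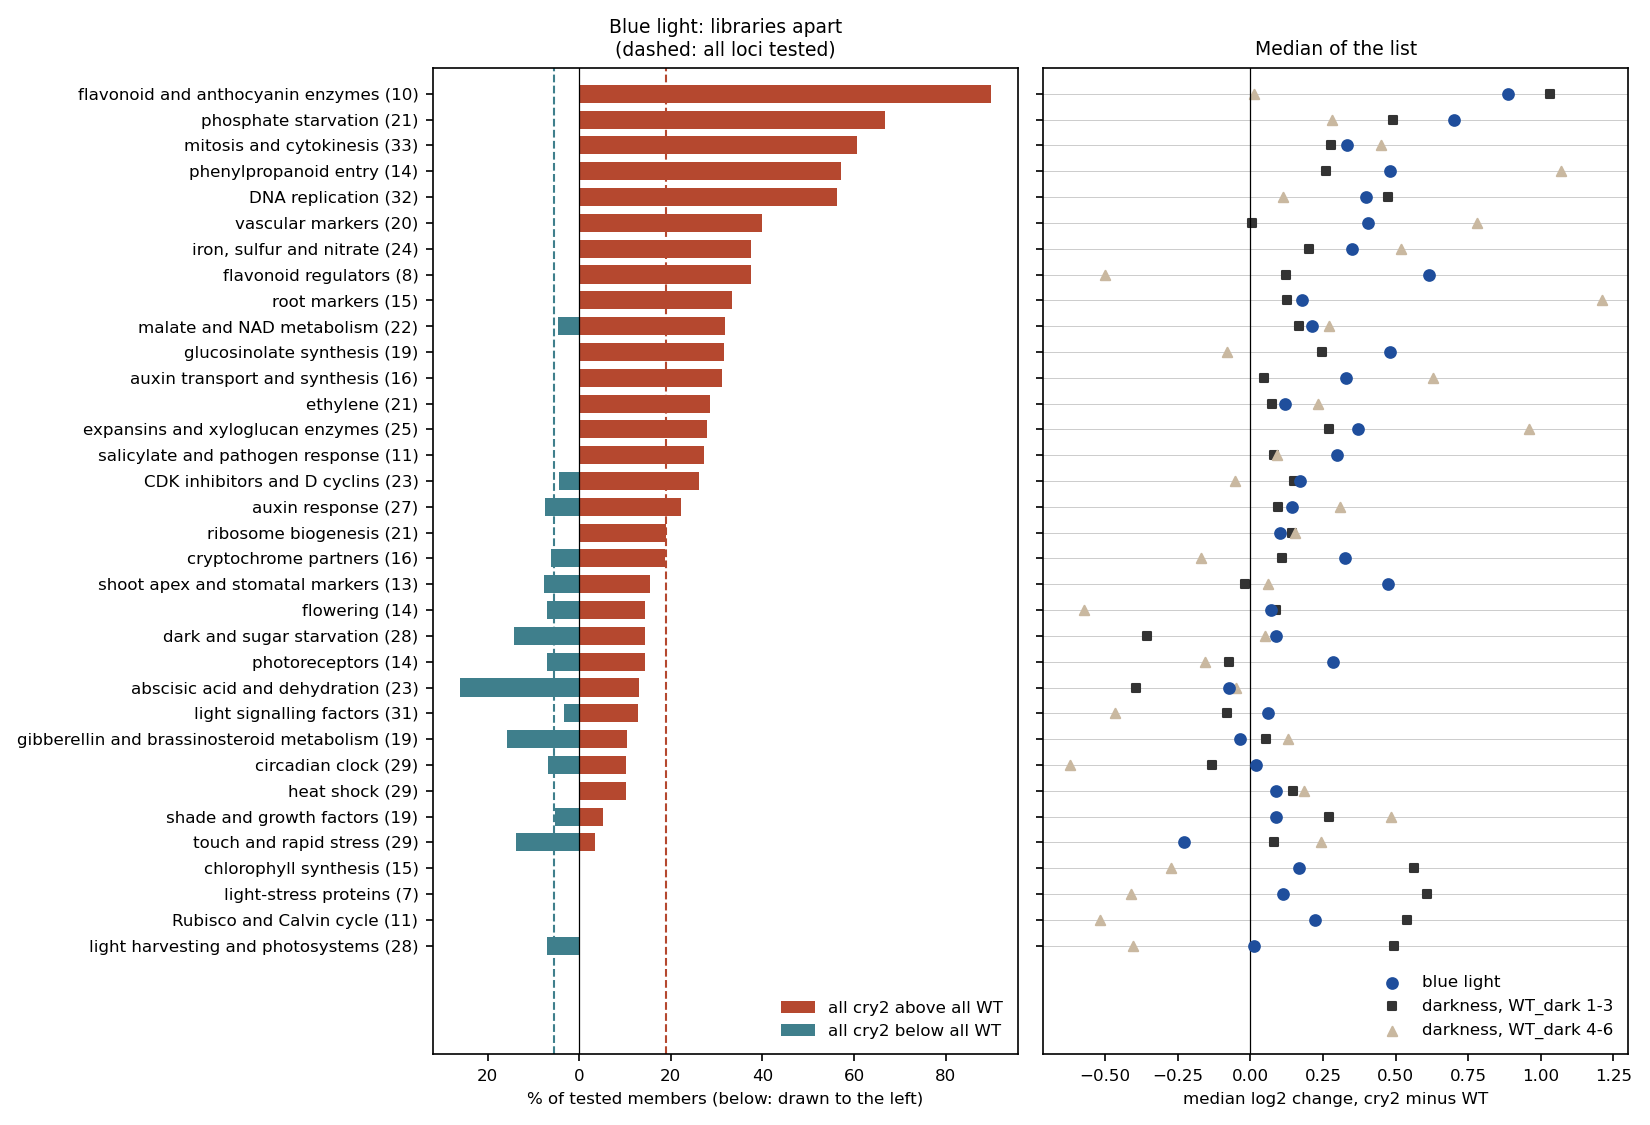
Left, the share of tested members of each gene list that lay higher or lower in all 3 cry2_blue libraries than in any WT_blue library, with dashed lines at the shares over all loci (19.0% and 5.45%). Right, the median log2 difference of each list for cry2_blue against WT_blue and for cry2_dark against WT_dark 1-3 and against WT_dark 4-6. Phosphate, flavonoid, phenylpropanoid and cell division lists lie furthest right of the dashed line for higher members.

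Several further lists had members that separated upwards and none that separated downwards, against 19.0% and 5.45% of all loci. Of 24 tested genes for iron, sulfur and nitrate, 9 (37.5%) separated upwards, led by the iron regulator bHLH39 with 4.45, 5.36 and 8.06 TPM in cry2_blue, against 2.37, 1.1 and 1.63 in WT_blue (1.36 ± 0.25, limma adjusted p = 0.129). Of 19 tested glucosinolate genes, 6 (31.6%) separated upwards. CYP79B2, which makes the precursor of indole glucosinolates and of camalexin, had 15.0, 18.1 and 16.9 TPM in cry2_blue, against 9.86, 7.57 and 8.43 in WT_blue (0.88 ± 0.13, adjusted p = 0.0899). After median-of-ratios scaling 5 iron, sulfur and nitrate genes separated upwards, and 3 glucosinolate genes separated upwards and 1 downwards, against 10.6% and 11.3% of all loci. Auxin transport and synthesis had 5 of 16 members (31.2%) separating upwards, also 5 after that scaling. ABCB4, an auxin transporter, averaged 61.4 ± 16.4 TPM in cry2_blue and 36.1 ± 4.74 in WT_blue (SD, n = 3 each, 0.72, adjusted p = 0.216). The ethylene list had 6 of 21 (28.6%), and 3 after rescaling, expansins and xyloglucan enzymes had 7 of 25 (28%), and 5 with 2 downwards after rescaling, and salicylate and pathogen response genes had 3 of 11, and 2 after rescaling. No member of the lists in this paragraph was called.

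Fewer gene groups leaned downwards. Of 23 tested genes of the abscisic acid and dehydration response, 6 (26.1%) lay lower in all cry2_blue libraries and 3 (13%) higher. Over all loci these shares were 5.45% and 19.0%. After median-of-ratios scaling 6 lay lower and 2 higher, against 11.3% and 10.6% of all loci. RD22, a dehydration-responsive gene of the BURP family, had 206, 126 and 135 TPM in cry2_blue, against 298, 299 and 274 in WT_blue (-0.93 ± 0.19, limma adjusted p = 0.139). LTI65, a gene responsive to abscisic acid, had 6.21, 5.93 and 6.59 TPM in cry2_blue, against 9.42, 11.9 and 11.6 in WT_blue (-0.72 ± 0.13, adjusted p = 0.125). COR47, a dehydrin, had 444, 317 and 392 TPM in cry2_blue, against 515, 532 and 883 in WT_blue (-0.71 ± 0.23, adjusted p = 0.253). ABF3, a factor that binds abscisic acid response elements, was among the 3 that lay higher, with 455, 450.0 and 398 TPM in cry2_blue, against 346, 391 and 323 in WT_blue. LTP3, called lower, is not on this list.

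Cold and touch genes gave a mixed picture that 1 mutant library shaped. The cold regulators DREB1A and CBF2 had means of 2.06 ± 0.29 and 7.90 ± 0.60 TPM (SD, n = 3) in cry2_blue, against 4.61 ± 0.88 and 11.4 ± 0.90 in WT_blue, with every mutant library below every wild-type library (limma adjusted p = 0.138 and 0.191). Of the 29 tested touch and rapid stress genes, 4 separated downwards and 1 upwards, against 5.45% and 19.0% of all loci, and the median was -0.23. After median-of-ratios scaling 5 separated downwards and 0 upwards, against 11.3% and 10.6%, and the median was -0.35. Several of the genes that overlapped between the groups were high in cry2_blue 3 alone. The touch gene TCH4 had 32.7, 31.6 and 79.3 TPM in cry2_blue, against 75.4, 76.6 and 62.7 in WT_blue, and WRKY40 had 23.3, 28.1 and 81.7 TPM in cry2_blue, against 63.4, 68.8 and 58.7 in WT_blue. In both genes cry2_blue 1 and 2 lay below all wild-type libraries and cry2_blue 3 above them.

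Flowering and clock genes were mostly level. FLC, the MADS-box repressor of flowering, had 10.97, 7.88 and 10.01 TPM in cry2_blue, against 18.7, 25.9 and 19.3 in WT_blue (-1.07 ± 0.17, limma adjusted p = 0.103). It was lower in cry2_dark too, with 11.8, 17.04 and 14.4 TPM, against 34.3, 40.7 and 31.5 TPM in WT_dark 1-3 (-1.25, adjusted p = 4.83e-05), and its difference from WT_dark 4-6 was -0.41 (adjusted p = 0.189). Of 29 clock genes, 3 separated upwards and 2 downwards, against 19.0% and 5.45% of all loci, and after median-of-ratios scaling 2 upwards and 6 downwards, against 10.6% and 11.3%. AT5G08330, a TCP-family factor annotated as TCP11 and entered on the clock list as CHE, had 22.3, 19.4 and 21.2 TPM in cry2_blue. WT_blue had 30.3, 29.9 and 36.9 TPM of it (adjusted p = 0.139). ELF4, a member of the evening complex, had 49.8, 45.8 and 56.6 TPM in cry2_blue, against 72.8, 72.2 and 62.5 in WT_blue (adjusted p = 0.213).

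The receptors and the central light signalling genes gave no call other than CRY2 after blue light. CRY1 had 67.0, 76.6 and 59.3 TPM in cry2_blue, against 59.5, 58.7 and 41.7 in WT_blue, and the groups overlapped (0.35 ± 0.17, limma adjusted p = 0.365). PHYA, the phytochrome abundant in dark-grown seedlings, had 127, 138 and 113 TPM in cry2_blue, against 108, 93.7 and 92.4 in WT_blue, without overlap (0.36 ± 0.12, adjusted p = 0.26). PHYB overlapped, with 31.1, 32.4 and 25.2 TPM in cry2_blue, against 24.2, 26.5 and 18.4 in WT_blue. Of the 14 photoreceptors, 2 separated upwards, PHYA and PHYD, and 1 downwards, CRY2. These shares, 14.3% and 7.14%, are near the 19.0% and 5.45% of all loci.

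Genes that act downstream of cryptochromes gave no call after blue light either. HY5, the bZIP factor that COP1 degrades in darkness, had 335.9, 310.5 and 333 TPM in cry2_blue, against 336.3, 356 and 390.0 in WT_blue, a narrow separation (-0.14 ± 0.11, limma adjusted p = 0.523). In darkness HY5 was called lower in the mutant against both wild-type sets. It had 50.4, 49.3 and 51.6 TPM in cry2_dark, against 64.2, 68.1 and 70.6 TPM in WT_dark 1-3 (-0.415, adjusted p = 0.00217). WT_dark 4-6 had 125, 103 and 138 TPM (-1.25, adjusted p = 7.62e-05). The HY5 homologue HYH had 381, 403 and 381 TPM in cry2_blue, against 433, 464 and 306 in WT_blue (-0.02 ± 0.17, adjusted p = 0.951). AT3G52740, listed as BIC1 for its role as an inhibitor of cryptochrome dimerization, had 27.3, 42.4 and 34.6 TPM in cry2_blue, against 28.2, 31.6 and 22.9 in WT_blue (0.32 ± 0.19, adjusted p = 0.43). AT3G44450, listed as BIC2, had 3.8, 7.82 and 7.78 TPM in cry2_blue, against 2.38, 4.18 and 2.19 in WT_blue (0.91 ± 0.30, adjusted p = 0.249). COP1 and SPA1 differed by 0.32 ± 0.26 and 0.34 ± 0.15 and PIF4 by 0.01 ± 0.12. None of these differences after blue light passed the test, which does not show that the genotypes were alike. Of 31 light signalling factors 4 separated upwards and 1 downwards, and of 16 cryptochrome partners 3 and 1, against 19.0% upwards and 5.45% downwards over all loci. After median-of-ratios scaling these counts were 2 upwards and 4 downwards, and 1 and 1, against 10.6% and 11.3%, and the median of the light signalling factors was -0.06 in place of 0.06.

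Few photosynthesis genes separated the genotypes after blue light. Of 28 genes of light harvesting and the photosystems, 2 (7.14%) lay lower in all cry2_blue libraries and 0 higher, with a median of 0.01. Over all loci 5.45% lay lower and 19.0% higher. After median-of-ratios scaling 4 lay lower and 0 higher, against 11.3% and 10.6% of all loci, with a median of -0.11. The counts of lower members are near the shares over all loci. Without WT_blue 3, 9 of the 28 lay lower and 0 higher, against 10.7% and 25.0% of all loci. No member of the lists for Rubisco and the Calvin cycle (11), chlorophyll synthesis (15) and light-stress proteins (7) separated the groups, and their medians were 0.22, 0.17 and 0.11. After median-of-ratios scaling the medians were 0.10, 0.05 and -0.008, and 1 light-stress gene lay lower. Without WT_blue 3, 1 Calvin cycle or Rubisco gene and 2 light-stress genes lay lower. CAB1, the most abundant light-harvesting transcript, had 23482, 22851 and 17730.4 TPM in cry2_blue, against 28045, 24784 and 22346 in WT_blue (-0.24 ± 0.17, limma adjusted p = 0.507). RBCS1A, a Rubisco small subunit, had 10327, 13309 and 10676 TPM in cry2_blue, against 11451, 11884 and 10408 in WT_blue. ELIP1 and ELIP2, the early light-induced proteins, had means of 1870 ± 243 and 1780 ± 354 TPM (SD, n = 3) in cry2_blue, against 1680 ± 313 and 1470 ± 395 in WT_blue. PORB, which makes chlorophyllide in the light, overlapped between the groups, with means of 1080 ± 318 TPM in cry2_blue and 946 ± 177 TPM in WT_blue. Genes of the light-harvesting and small subunit families are near-identical in places, and their individual values depend on how shared reads were divided.

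In darkness the calls on the same lists depended on the wild-type group. Against WT_dark 1-3, 23 of 28 light-harvesting genes, 9 of 11 Rubisco and Calvin cycle genes, 15 of 15 chlorophyll genes and 6 of 7 light-stress genes were called higher in cry2_dark, where 17.37% of all loci were. Against WT_dark 4-6, with the same cry2_dark libraries, these counts were 1, 0, 0 and 0, and 8, 8, 3 and 2 were called lower, where 21.33% of all loci were called higher and 20.18% lower. The counts called lower are near that share for light harvesting, chlorophyll and light-stress genes and above it for Rubisco and the Calvin cycle. RBCS3B had 2766, 2714 and 2914 TPM in cry2_dark, against 1578, 1469 and 1615 TPM in WT_dark 1-3 and 4061, 5968 and 5469 TPM in WT_dark 4-6. After blue light it had 5324, 7098 and 6158 TPM in cry2_blue, against 5388, 5422 and 5208 in WT_blue. The rRNA loci summed to 9565 to 12665 TPM in cry2_dark, against 41040 to 48180 TPM in WT_dark 1-3. The column headers of the 3 dark groups carry different prefixes, whereas those of cry2_blue and WT_blue share 1. Group and header prefix cannot be told apart in darkness.

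**Figure D4:**
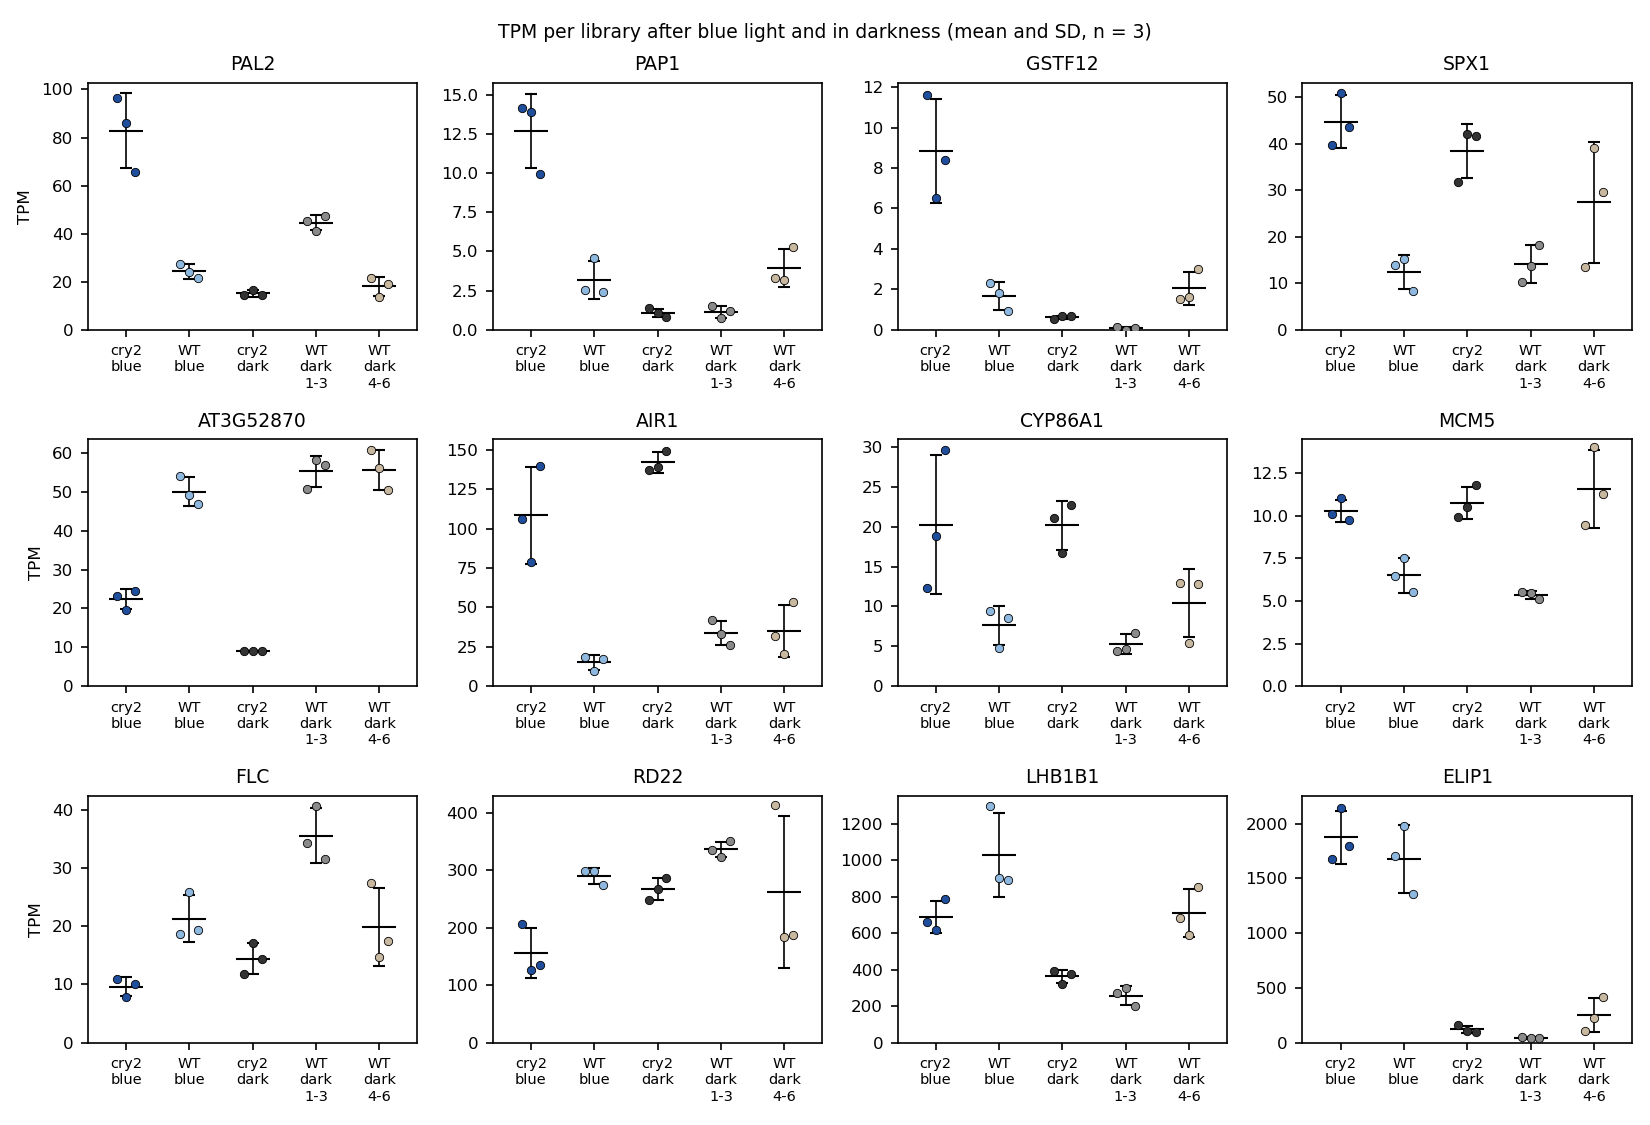
TPM of 12 genes in each library of cry2_blue, WT_blue, cry2_dark, WT_dark 1-3 and WT_dark 4-6, with points for libraries and the mean ± SD. PAL2 lies higher in the mutant after blue light and lower than WT_dark 1-3 in darkness, AIR1 lies higher in the mutant in both conditions, and LHB1B1 and ELIP1 change their order in darkness with the wild-type set.

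Over all loci the mutant effects in blue light and darkness were only loosely alike. The log2 differences of the 18560 loci tested in both had a Pearson correlation of 0.244 across loci, which are not independent replicates, between comparisons that share no library. Of the 14 called loci, 12 were tested in darkness against WT_dark 1-3. There 8 were called in the same direction and 1, PAL2, in the opposite direction. The 8 include the missing genes CRY2, c-NAD-MDH1 and AT1G04420. Against WT_dark 4-6 these genes, AT3G52870 and AIR1 were again called in the same direction. LTP3, AT5G53048 and AT5G62210 were not (limma adjusted p = 0.0669, 0.366 and 0.411), and PAL2 was not called. AT3G09055, not tested against WT_dark 1-3, was called in the opposite direction (-1.68, adjusted p = 0.000565). The difference of the mutant effect between blue light and darkness passed the test at 561 of 19985 loci (2.81%). When the dark libraries cry2_dark and WT_dark 1-3 were added to the fit, so that 4 groups shared 1 estimate of the spread, 537 loci (2.75%) were called higher after blue light and 156 (0.799%) lower. In that fit, 11 of 21 phosphate genes, 7 of 14 phenylpropanoid genes, 1 of 10 flavonoid enzymes, 3 of 8 flavonoid regulators, 5 of 33 mitosis genes, 7 of 32 replication genes, 4 of 15 root markers and 3 of 20 vascular markers were called higher, and 0 lower. The differences themselves are the same in both fits, and the number called therefore turns on how the spread of 3 libraries per group is estimated.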

How the data were processed

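The authors deposited TPM for 32833 loci in a separate table for every library. Per the submitters' processing notes, fastp, HISAT2 (TAIR10) and StringTie were used, and no versions are stated. TPM hold no read totals. Depth is therefore unknown, and the spread between replicates is the measure of error. As TPM are shares, abundant RNAs move all others.

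Loci whose mean over the 6 libraries reached 1 TPM were tested across all genes. The test was limma 3.58.1 (R 4.3.3, tables read with jsonlite 2.0.0) on log2(TPM + 1). It used a mean-variance trend, robust moderation and Benjamini-Hochberg adjustment, with calls at an adjusted p under 0.05. Changes of low loci are understated on this scale. Darkness and the interaction were fitted alike. The procedure was tested on simulated data.

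The 36 gene lists (804 entries), the naming rule and the comparison itself were chosen with earlier results of these data known. Named by rule were called loci, the genes beside CRY2, the 2 most abundant members of lists with no call, and light signalling hubs, of which those that add to the account are given. All other genes named were chosen after their values were seen. Replicate numbers were not taken as pairs in the main fit. Promoters came from RefSeq, assembly TAIR10.1, whose name differs from the build of the notes, through locus identifiers. Alternatives were other pseudocounts, filters, scalings, fits and left-out libraries, with library weights added after seeing the data.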

Additional observations from a re-analysis of the deposited data

Results flagged for a closer look

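At 15 of the named genes the mutant effect in blue light differed from that in darkness (WT_dark 1-3) in a test of the difference itself, a limma interaction with adjusted p under 0.05. Over all loci 561 of 19985 (2.81%) passed it. Many of the named genes were chosen after their values were seen, so the 15 cannot be read as a rate. Values are the effect in blue light minus that in darkness on the log2(TPM + 1) scale. The effect was more positive in blue light for PAL2 (3.22), PAP1 (1.77), AT3G09055 (1.38), AT3G52870 (1.36), MGD2 (1.08), ACL5 (0.98), PHT1;1 (0.78), ABF3 (0.73) and c-NAD-MDH1 (0.69). It was more negative in blue light for SNOR111 (-4.93), EARLI1 (-1.67), HYH (-1.33), ELIP1 (-1.26), LHB1B1 (-1.07) and RBCS3B (-0.64). SNOR111 and AT3G09055 include groups listed at 0, so their values depend on the added 1.

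For c-NAD-MDH1 the mutant is at or near 0 in both conditions, and the value follows the wild-type level, which was 551 to 679.6 TPM in WT_blue and 768 to 832 TPM in WT_dark 1-3. EARLI1, a relative of AIR1, had 260, 327 and 283 TPM in cry2_blue, against 183, 143 and 161 in WT_blue, and 151, 193 and 172 TPM in cry2_dark, against 37.7, 30.1 and 22.2 TPM in WT_dark 1-3 and 262, 251 and 182 TPM in WT_dark 4-6. HYH had 68.0, 60.6 and 69.6 TPM in cry2_dark, against 23.49, 25.1 and 30.2 TPM in WT_dark 1-3 and 124, 131 and 191 TPM in WT_dark 4-6. The sign of the dark difference turned with the wild-type set at 7 of these genes tested against both sets, EARLI1, HYH, PHT1;1, ACL5, ELIP1, LHB1B1 and RBCS3B. Against WT_dark 1-3 and against WT_dark 4-6, in that order, it was 2.50 and -0.42 for EARLI1, 1.303 and -1.14 for HYH, -0.17 and 1.51 for PHT1;1, -0.35 and 0.53 for ACL5, 1.43 and -0.88 for ELIP1, 0.51 and -0.95 for LHB1B1 and 0.85 and -0.87 for RBCS3B (log2). Other than for ACL5, the dark difference of these 7 lay on opposite sides of the blue difference with the 2 sets. AT3G09055 turned as well, although its level was too low for the test against WT_dark 1-3. It had 0.65, 0.98 and 1.03 TPM in cry2_dark, against 0 in WT_dark 1-3. WT_dark 4-6 had 7.47, 3.66 and 4.48 TPM (difference -1.68, limma adjusted p = 0.000565). With WT_dark 4-6 in the interaction, 4472 loci passed in place of 561.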

How the results depend on the processing

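The count of 14 calls after blue light was 7 without a filter on low values and 7 with ordinary moderation. It was 23 with a mean of at least 5 TPM, 23 without rRNA and organelle loci, 38 with the replicate block, 321 with library weights and 693 with 12 libraries in the fit. Other pseudocounts and median-of-ratios scaling gave 13 to 17. Leaving out 1 library gave 6 (without cry2_blue 1) to 41 calls (without WT_blue 3) for blue light, 9 of them without WT_blue 2. The range was 2889 to 4305 for darkness, with the low end without cry2_dark 3, and 95 to 1555 for the interaction, the ends being without cry2_dark 3 and without WT_blue 3. With WT_dark 4-6 in place of 1-3 the dark count was 8233 in place of 4568, and the interaction count 4472 in place of 561. Same-numbered libraries of cry2_blue and WT_blue deviated together with correlations of 0.016, 0.231 and 0.219, and differently numbered ones with -0.263 to 0.128. The main fit did not take the numbers as pairs, and these values do not settle whether they mark pairs. The replicate block gave 4543 dark calls and 391 interaction calls. Of the 14 called loci, 4 were called in all 16 alternatives (CRY2, c-NAD-MDH1, AT1G04420 and SNOR111) and all 14 kept their sign. Of the 6 called loci the text does not trace, AT5G62210 and AT5G53048 lost the call without cry2_blue 1 or 2, AT5G20790 without any cry2_blue library or WT_blue 2, AT2G08825 without any cry2_blue library or WT_blue 3, and AT3G02475 and AT3G09055 in 5 and 4 of the 6 leave-one-out fits.

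Signs turned at 6 named genes close to 0. When 1 library was left out, AT1G04380 ranged from -0.636 to 1.136, HYH from -0.207 to 0.092, PIF4 from -0.053 to 0.075, PYK10 from -0.339 to 0.002, RBCS1A from -0.097 to 0.086 and PORB from -0.004 to 0.433 (log2). With median-of-ratios scaling PIF4 was -0.102 and RBCS1A -0.103, and with library weights RBCS1A was -0.031. The causes were not tested. Over the named genes and all alternatives, 1810 values kept direction and call, 94 gained a call, 59 lost one and 53 moved.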

Other observations

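ICL, the isocitrate lyase of the glyoxylate cycle that turns seed oil into sugar, had 476, 1059 and 506 TPM in cry2_blue, against 144, 122 and 109.8 in WT_blue (2.34 ± 0.30 on the log2 scale, limma adjusted p = 0.0618). The mutant was higher in 3 of 3 libraries, with cry2_blue 2 at about the sum of the others. In darkness ICL had 137, 209 and 245 TPM in cry2_dark, against 94.6, 93.7 and 82.5 TPM in WT_dark 1-3 (1.08, adjusted p = 0.0347) and 418, 361 and 208 TPM in WT_dark 4-6 (-0.72, adjusted p = 0.131). The gene was chosen after its values were seen.

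AT3G52870 and PAL2, both called after blue light in opposite directions, lie 151 kilobases apart on chromosome 3 in the RefSeq annotation. Of the 31 tested loci between them, 0 were called and 11 (35.5%) separated the groups, against 24.4% of all loci tested. Called loci were spread over the chromosomes, with 4 of 5135 tested loci on chromosome 1, 1 of 2979 on chromosome 2, 4 of 3841 on chromosome 3, 1 of 2940 on chromosome 4 and 4 of 4500 on chromosome 5. Whether genetic background other than the lesion differs between the lines was not tested.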
